A study of Mus musculus with 6 samples.

Results

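The solute carrier families that move sugars, phosphate, di- and monocarboxylates, sulfate, inositol and vitamin C across membranes were followed in the whole kidney of mice of the inbred strains BALB/c and C57BL/6 (B6). Members were every row whose gene symbol starts with Slc2a, Slc5a, Slc13a, Slc20a, Slc23a, Slc34a, Slc37a, Slc45a or Slc50a followed by a number. That rule gave 49 of 23282 rows, of which 47 are transporter genes, 1 is the antisense RNA gene Slc13a2os and 1 is the pseudogene Slc2a4rg-ps. The series concerns strain differences of kidney innate lymphoid cells, and its kidney libraries compare the strains with no treatment, time point or transgene in the labels. There were 3 libraries per strain, and age and sex are not given in the labels. Libraries were read from the 3′ ends of transcripts with a Lexogen QuantSeq kit. Values are CPM (read counts scaled to nearly the same total in each library), and library values are listed in the order of replicates 1, 2 and 3. Folds set BALB/c against B6 as log2(CPM + 1) differences, so they fall short of the true ratio for genes of few reads.

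The kidney filters small solutes into the tubule and takes most of them back in the proximal tubule. Sodium-coupled carriers, most of them in the apical membrane (Slc5, Slc13, Slc23 and Slc34 families) pull glucose, lactate, citrate, sulfate, ascorbate and phosphate from the filtrate into the cell, driven by the sodium gradient. Facilitative carriers of the Slc2 family, the GLUT proteins, then let sugars leave across the basolateral membrane, and Slc37a4 brings glucose-6-phosphate into the endoplasmic reticulum for the last step of glucose production. Inositol carriers serve a separate task in the medulla, where cells gather organic osmolytes against the salty surroundings.

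Recovered read totals lay between 8310798 and 10416332 per library. Proximal tubule markers were abundant in all libraries, with a summed level of 12 genes between 9115 and 11250 CPM. Xist lay between 104.3 and 193 CPM in the 6 libraries, while the Y-linked genes Eif2s3y, Kdm5d and Uty had 0 reads in every library and Ddx3y had 2 reads over the B6 and 8 over the BALB/c libraries. B6 replicate 2 stood apart in some markers of other segments. Its 6 loop of Henle genes summed to 5108 CPM, against 3832 to 4371 CPM in the other 5 libraries, and 5 of the 6 were highest in it. Its 8 collecting duct genes summed to 904 CPM, against 550 to 685 CPM in the other 5, and 5 of the 8 were highest in it. The excess of the sum came from Aqp2. Without Aqp2 the other 7 summed to 406 CPM in it, against 417 and 412 CPM in B6 replicates 1 and 3. Of these 7, Atp6v1g3 had the most reads and was lowest in it, at 201 CPM against 205.5 to 269 CPM. Aqp3, Foxi1, Slc4a1 and Slc26a4 were each highest in it. B6 replicate 2 also held the highest value of 16 of the 40 members that were tested, against 17.6% of all genes tested. The labels say nothing of how the tissue was cut. Immune cell genes summed to 76.0 to 104.3 CPM in the B6 libraries and to 142.6 to 169.2 CPM in those of BALB/c. Of 5 tested, 2 were called higher (Csf1r and Cx3cr1), beside 4.17% of all genes tested. Without Csf1r the sums of the strains overlapped, at 20.8 to 30.4 CPM and 26.4 to 39.7 CPM, and Cx3cr1 lost its call in 4 of the fits that left out 1 library (adjusted p up to 0.177).

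Members above the low-value filter numbered 40 (a deposited log2 value of at least 1 in at least 3 libraries). Of these, BALB/c libraries had 1 higher and 2 lower by limma (Benjamini-Hochberg over 13317 genes, adjusted p under 0.05). That is 7.50% of the members tested, near the 9.09% of all genes tested that were called (4.17% higher and 4.93% lower). The member that rose was Slc5a12, and those that fell were Slc5a8 and Slc5a1. All 3 belong to the Slc5 family of sodium-coupled carriers, of which 9 of 13 members were tested. By limma 0 of the 31 tested members of the other families were called, of which 7 had an unadjusted p under 0.05, and limma-voom called 1 of them, Slc34a1. An unadjusted p under 0.05 was found for 12 members (30.0%, against 21.3% of all genes), and the CPM ranges of the strains did not overlap for 10 members (25.0%, against 25.4%). The median log2 fold of the members was 0.0040, beside 0.0023 for all genes tested, and the median size of a fold without its sign was 0.215 beside 0.217. Without BALB/c replicate 3, 6 members were called, and 1 member, Slc5a12, was called when the variance prior had no trend. In whole kidney, fewer cells of a type and less RNA per cell cannot be told apart. The reference genome is from B6, and any loss of BALB/c reads through mismatches to it was not tested.

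**Figure D1:**
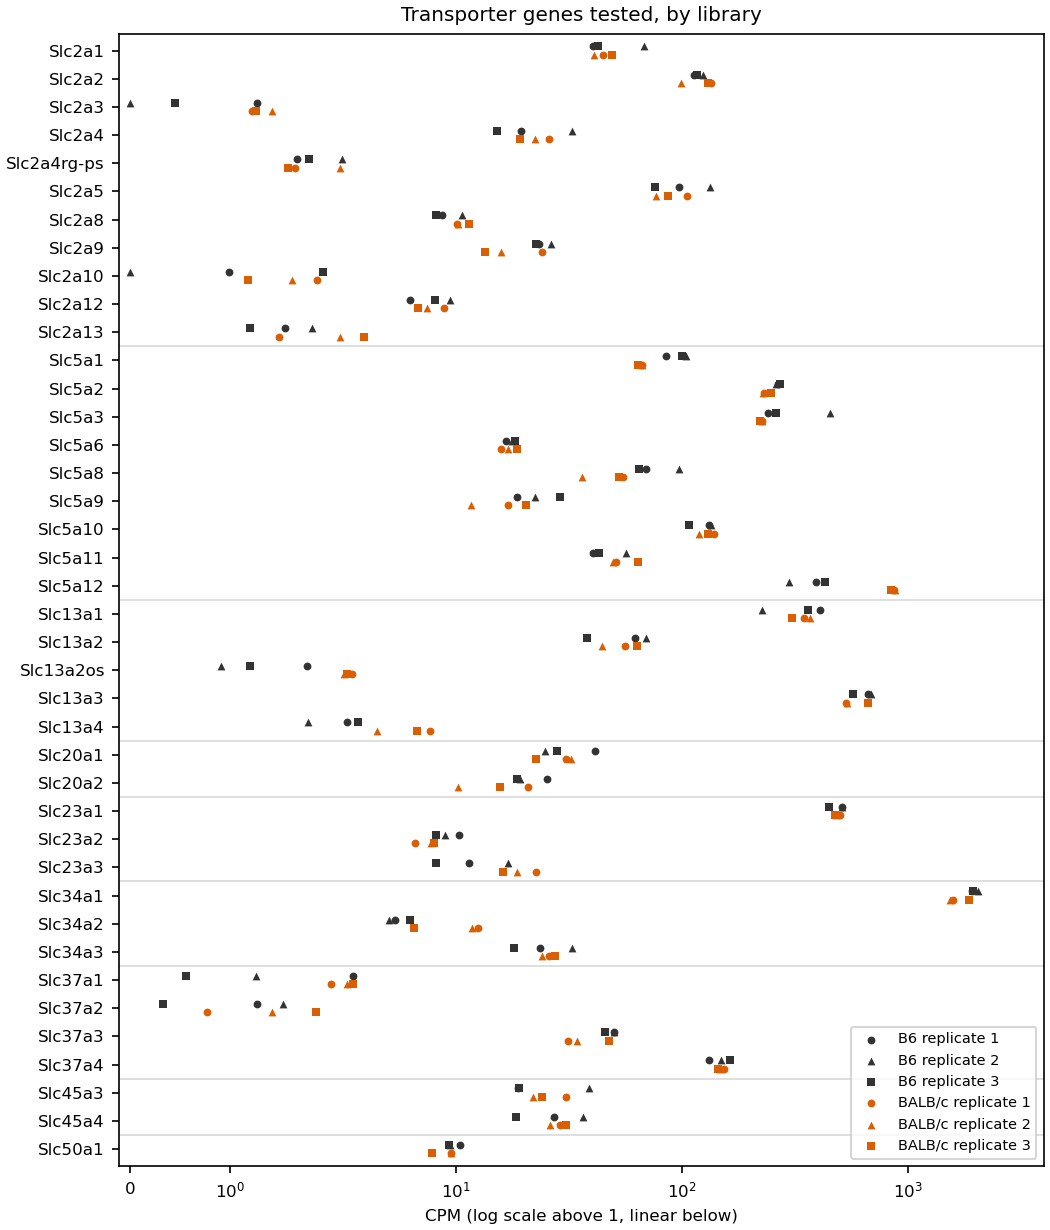
CPM of the 40 tested members in each of the 6 libraries (horizontal axis, logarithmic above 1 and linear below; grey lines part the families; black, B6; orange, BALB/c; marker shape, replicate). Points of the strains interleave for most genes, whereas the BALB/c points of Slc5a12 all lie above those of B6 and those of Slc5a1 and Slc5a8 all lie below.

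**Figure D2:**
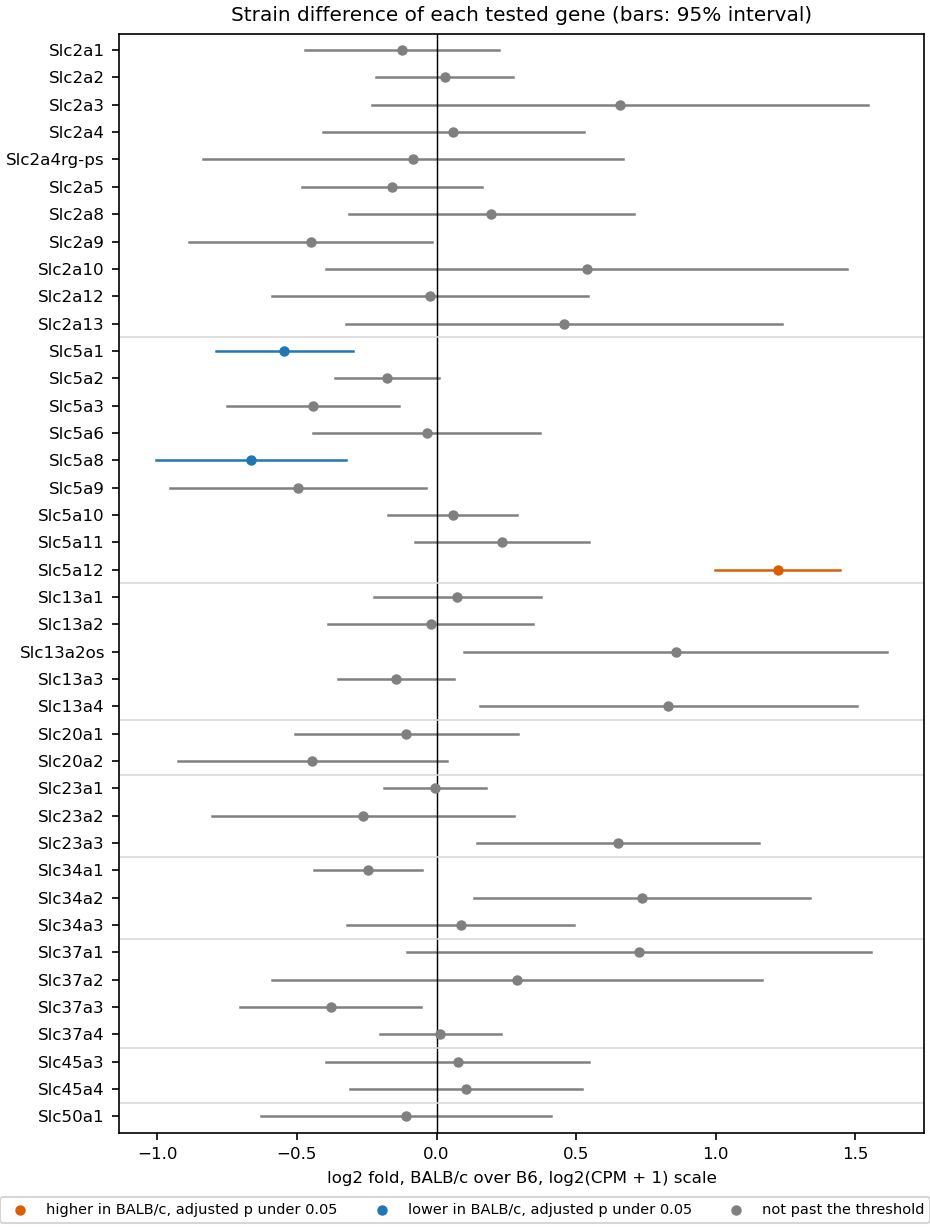
Log2 fold of BALB/c over B6 with its 95% interval for each tested member (limma on log2(CPM + 1), n = 3 libraries per strain). Slc5a12 stands to the right at 1.22, Slc5a1 and Slc5a8 to the left at -0.54 and -0.67, and genes of low level such as Slc2a3 and Slc37a1 have wide intervals.

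The 2 sodium-coupled monocarboxylate carriers moved in opposite directions. Slc5a12 (SMCT2, the low-affinity carrier that takes up lactate) lies on chromosome 2, 110597298 to 110647779, plus strand (GRCm38). It measured 394, 297 and 431 CPM in the B6 libraries and 869.7, 876 and 844 CPM in the BALB/c libraries. Every BALB/c library was about equal and far above every B6 library, and B6 replicate 2 was the lowest. The means were 374 ± 69.4 CPM for B6 and 863 ± 17.3 CPM for BALB/c (SD, n = 3 libraries each), a log2 fold of 1.22 ± 0.11 (SE, 95% interval 1.0 to 1.45, limma adjusted p = 2.39e-08). It was called under all 17 alternatives tried, with folds between 1.06 and 1.33. Of 12 general proximal tubule markers 3 had positive folds, 0 were called higher and 1 lower (4.17% and 4.93% of all genes tested). Their sum was 10150 to 11250 CPM in the B6 libraries and 9115 to 10400 CPM in those of BALB/c. Their part in the Slc5a12 difference was not tested. No exon of Slc5a12 overlaps another gene in the annotation, and none of its 3′ end was found in another gene's transcripts.

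Slc5a8 (SMCT1, the high-affinity carrier of lactate, pyruvate, short-chain fatty acids and nicotinate) lies on chromosome 10, 88885992 to 88929515, plus strand. Its values were 69.2, 97.4 and 64.3 CPM in the B6 libraries and 55.2, 36.3 and 53.0 CPM in the BALB/c libraries. B6 replicate 2 was the highest of the 6 libraries and BALB/c replicate 2 the lowest, and the ranges of the strains did not overlap. Slc5a8 averaged 77.0 ± 17.8 CPM for B6 and 48.2 ± 10.3 CPM for BALB/c, a log2 fold of -0.67 ± 0.16 (95% interval -1.0 to -0.33, limma adjusted p = 0.0101). Its call rested on those outer libraries, since the adjusted p was 0.0641 without B6 replicate 2 (fold -0.49) and 0.0858 without BALB/c replicate 2 (fold -0.48). It also ended when genes of a single read were kept (0.0712) and when the prior had no trend (0.179). Within each library the Slc5a12 reads came to 5.69, 3.05 and 6.70 times the Slc5a8 reads in B6 and to 15.8, 24.1 and 15.9 times in BALB/c, a ratio of tag counts that is given as a description.

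Among sodium-glucose carriers, the late-segment form fell and the early-segment form did not pass the test. Slc5a1 (SGLT1, which recovers the last of the filtered glucose in the straight part of the proximal tubule) lies on chromosome 5, 33104219 to 33162870, plus strand. It measured 85.2, 105 and 100.5 CPM in the B6 libraries and 66.8, 66.6 and 63.9 CPM in the BALB/c libraries. All BALB/c libraries lay close together and below all B6 libraries. The means were 96.8 ± 10.2 CPM for B6 and 65.8 ± 1.61 CPM for BALB/c, a log2 fold of -0.54 ± 0.12 (95% interval -0.79 to -0.30, limma adjusted p = 0.00358). The call held without any 1 library (highest adjusted p 0.0169) and ended when the prior had no trend (0.0823).

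Of 7 genes that mark the straight segment of the proximal tubule, where Slc5a1 is known to act, 4 were called lower in BALB/c and 0 higher. Over all genes tested 4.93% were called lower. The median log2 fold of the 7 was -0.42, with 1 positive fold, that of Acsm3 (0.35, limma adjusted p = 0.584). Their summed level was 1703 to 2165 CPM in the B6 libraries and 1342 to 1546 CPM in those of BALB/c. Most of that sum was Cyp2j5, with 1321 to 1680 CPM for B6 and 1034 to 1231 CPM for BALB/c. Fgf1 (a fibroblast growth factor gene) had -0.90, Slc7a13 (an amino acid carrier gene) -1.62 and Cyp2j5 (a cytochrome P450 gene) -0.44, with limma adjusted p = 7.33e-06, 0.00629 and 0.00531. The Slc7a13 fold rests on 107 reads for B6 and 16 for BALB/c, and lay between -2.7 and -0.66 over the 13 alternatives that kept this gene. Cyp2j5 lost its call when genes of a single read were kept or the prior had no trend (adjusted p up to 0.177). The fourth, Slc7a12 at -0.40, lost its call when any library but B6 replicate 2 was left out (adjusted p up to 0.205). Of 7 genes of the early segments 1 was called higher and 3 lower (median -0.25). The part of these markers in the Slc5a1 and Slc5a8 differences was not tested.

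For the 2 members that fell, the reference DNA just before the start site is shown, since it is the stretch where promoter elements lie. Both are the 250 bases before the RefSeq start on GRCm38.p6, which is the B6 sequence, so BALB/c bases may differ. Capitals mark matches, on either strand, to 3 short motifs. These were the TATA motif with the letters TATAAA, the GC box with the letters GGGCGG and the CCAAT motif.
Slc5a1 (chr5:33103969-33104218, + strand): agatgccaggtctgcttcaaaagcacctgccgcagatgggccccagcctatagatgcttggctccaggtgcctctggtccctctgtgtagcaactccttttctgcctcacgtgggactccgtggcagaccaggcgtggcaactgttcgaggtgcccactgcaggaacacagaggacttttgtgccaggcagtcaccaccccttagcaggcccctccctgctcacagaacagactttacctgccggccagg
Slc5a8 (chr10:88885742-88885991, + strand): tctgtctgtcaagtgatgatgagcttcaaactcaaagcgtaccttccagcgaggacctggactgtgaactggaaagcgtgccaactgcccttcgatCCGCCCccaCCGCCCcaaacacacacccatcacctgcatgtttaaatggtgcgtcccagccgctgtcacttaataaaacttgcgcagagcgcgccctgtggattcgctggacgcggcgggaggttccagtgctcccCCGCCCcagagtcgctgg
The Slc5a8 stretch holds 3 GC boxes on the opposite strand, which begin 154, 145 and 18 bases before the start, and neither of the other motifs. The Slc5a1 stretch holds none of the 3. Over 32851 promoter stretches of this length, the GC box was found in 32.7%, the TATA motif in 12.4% and the CCAAT motif in 33.8%. These matches describe the letters of the window, with no bearing on which factors bind there.

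Slc5a2 (SGLT2, which recovers the bulk of filtered glucose in the early proximal tubule) measured 268, 261 and 272 CPM in the B6 libraries and 232, 229 and 247 CPM in the BALB/c libraries. Its strain ranges did not overlap, but the fold was small, -0.18 ± 0.091 (95% interval -0.37 to 0.01, limma adjusted p = 0.266). The whole of its 3′ end lies within BC017158 on the opposite strand, and that gene counted 7764 reads for B6 and 7030 for BALB/c beside 7450 and 6805 for Slc5a2. Since the use of strand in counting is not given in the sources used here, reads of the 2 genes cannot be told apart. Pdzk1ip1, which encodes the small membrane protein MAP17 that SGLT2 needs to work, had 0.15 (limma adjusted p = 0.359).

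Other sodium-coupled sugar carriers did not pass the test. Slc5a9 (SGLT4, a carrier of mannose and fructose) lay between 18.7 and 28.9 CPM for B6 and between 11.7 and 20.5 CPM for BALB/c, a log2 fold of -0.50 (limma adjusted p = 0.187). Slc5a10 (SGLT5, likewise a mannose and fructose carrier) averaged 125 ± 15.3 CPM for B6 and 129.6 ± 9.57 CPM for BALB/c, with a 95% interval of -0.18 to 0.29 for its fold. Slc5a6 (SMVT, which carries biotin and pantothenate) averaged 17.6 ± 0.787 CPM for B6 and 17.2 ± 1.49 CPM for BALB/c, with an interval of -0.44 to 0.37. The glucose-sensor genes Slc5a4a and Slc5a4b lay under the filter. Slc5a4a had 10 reads, all in BALB/c replicate 1, and Slc5a4b had 3 reads in each strain.

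Facilitative sugar carriers showed no called difference. Of 13 rows whose symbol starts with Slc2a 11 were tested, with 6 positive and 5 negative folds and a median of 0.029. These counts and the median include the pseudogene Slc2a4rg-ps. Slc2a2 (GLUT2, the basolateral exit for glucose in the early proximal tubule) measured 113, 124 and 117 CPM in the B6 libraries and 135, 98.8 and 130.4 CPM in the BALB/c libraries. The B6 libraries lay within the wider BALB/c range, and the 95% interval of its fold was -0.22 to 0.28. Slc2a1 (GLUT1, the widespread glucose carrier) measured 40.3, 67.9 and 42.6 CPM in the B6 libraries and 44.9, 40.7 and 49.2 CPM in the BALB/c libraries, a log2 fold of -0.12 ± 0.17 (interval -0.47 to 0.22). B6 replicate 2 stood above the other 5 libraries.

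Slc2a4 (GLUT4, the insulin-responsive carrier) measured 19.4, 32.7 and 15.1 CPM in the B6 libraries and 25.7, 22.3 and 19.1 CPM in the BALB/c libraries. The means were nearly equal, and the B6 libraries spread from the lowest to the highest value of the set. The fold was 0.06 ± 0.23 (interval -0.41 to 0.53). Adiponectin (Adipoq), a defining adipocyte gene, had 3.33 CPM in B6 replicate 2, where Slc2a4 was highest, and at most 0.236 CPM in the other 5 libraries. Of 7 adipocyte markers 5 were highest in that library, beside 17.6% of all genes tested. Of these, Lep, Plin1 and Adipoq rest on 6, 9 and 33 reads there, and Cfd on 182. Plin4 had 17.3 CPM there and 16.8 CPM in BALB/c replicate 1. The sum of the 7 there, 204 CPM, lay within the 121.5 to 224.5 CPM of the other 5 libraries. Most of that sum was Fabp4, with 163 CPM there and 109 to 197.5 CPM in the other 5. The part of these markers in the Slc2a4 value of that library was not tested.

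Slc2a9 (GLUT9, a urate carrier) measured 23.2, 26.3 and 22.5 CPM in the B6 libraries and 24.1, 15.8 and 13.4 CPM in the BALB/c libraries. BALB/c replicate 1 lay within the B6 range and the other BALB/c libraries below it, so that the strains overlapped, with a fold of -0.45 ± 0.21 (interval -0.88 to -0.018, limma adjusted p = 0.210). Slc2a5 (GLUT5, the fructose carrier) averaged 102 ± 29.2 CPM for B6 and 89.9 ± 14.5 CPM for BALB/c, a fold of -0.16. Slc2a8 averaged 9.19 ± 1.32 CPM for B6 and 10.6 ± 0.701 CPM for BALB/c and Slc2a12 7.91 ± 1.56 CPM for B6 and 7.72 ± 1.07 CPM for BALB/c. The 3′ end of Slc2a12 lies wholly within Tbpl1 on the opposite strand, which counted 717 reads for B6 and 722 for BALB/c beside 222 and 223 for Slc2a12. Slc2a3 (GLUT3), Slc2a10 and Slc2a13 (the proton-coupled inositol carrier HMIT) had mean levels under 3 CPM in each strain, with folds of 0.66, 0.54 and 0.46 whose intervals all include 0. The pseudogene Slc2a4rg-ps, which is no carrier, had -0.084.

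Downstream of uptake, Slc37a4 (the glucose-6-phosphate carrier of the endoplasmic reticulum) measured 132, 149 and 163 CPM in the B6 libraries and 154, 147 and 145 CPM in the BALB/c libraries. The strains interleaved, with a fold of 0.014 ± 0.10 (95% interval -0.20 to 0.23). G6pc, the glucose-6-phosphatase subunit that works with it, was lower in BALB/c, with 1125 ± 179 CPM for B6 and 595 ± 75.4 CPM for BALB/c and a fold of -0.91 ± 0.11 (limma adjusted p = 2.77e-06). Slc37a3 averaged 48.6 ± 2.48 CPM for B6 and 37.7 ± 8.54 CPM for BALB/c, a fold of -0.38 (limma adjusted p = 0.146), and was called lower without BALB/c replicate 3 (fold -0.55, adjusted p = 0.0336). Slc37a1 and Slc37a2 had mean levels of at most 3.21 CPM and folds of 0.73 and 0.29, neither called.

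Inositol carriers differed in how evenly they were measured. Slc5a3 (SMIT1, which loads inositol as an osmolyte in the medulla) measured 242, 452 and 262 CPM in the B6 libraries and 226, 227 and 223 CPM in the BALB/c libraries. The BALB/c libraries lay close together and below every B6 library, while B6 replicate 2 stood far above the other 5. The fold of -0.44 ± 0.15 (95% interval -0.75 to -0.13) did not pass the test (limma adjusted p = 0.0676). It was -0.16 (0.377) without B6 replicate 2, and past the threshold at -0.61 (0.0244) without B6 replicate 1 and -0.55 (0.0317) without B6 replicate 3. In the same library the water channel gene Aqp2, a collecting duct marker, had 498 CPM, against 138 to 302 CPM in the other 5. The other 7 collecting duct markers summed to 406 CPM in it, against 377 to 459 CPM. Of these 7, Atp6v1g3 had the most reads and was lowest in it, while Aqp3, Foxi1, Slc4a1 and Slc26a4 were highest in it. The taurine carrier gene Slc6a6 had 535 CPM in B6 replicate 2, against 306 to 477 CPM. Of the 10 genes of the inositol and osmolyte list, 7 were highest in that library, beside 17.6% of all genes tested. The part of these genes in the Slc5a3 value was not tested. Exons of Slc5a3 overlap those of Mrps6 on the same strand, a gene with a fold of 0.30 (limma adjusted p = 0.189) that was likewise highest in B6 replicate 2, at 302 CPM. None of the 3′ end of Slc5a3 was found in another gene's transcripts. Slc5a11 (SMIT2, a further inositol carrier) averaged 46.7 ± 8.70 CPM for B6 and 54.9 ± 7.82 CPM for BALB/c, a fold of 0.23 ± 0.15 (limma adjusted p = 0.399).

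**Figure D3:**
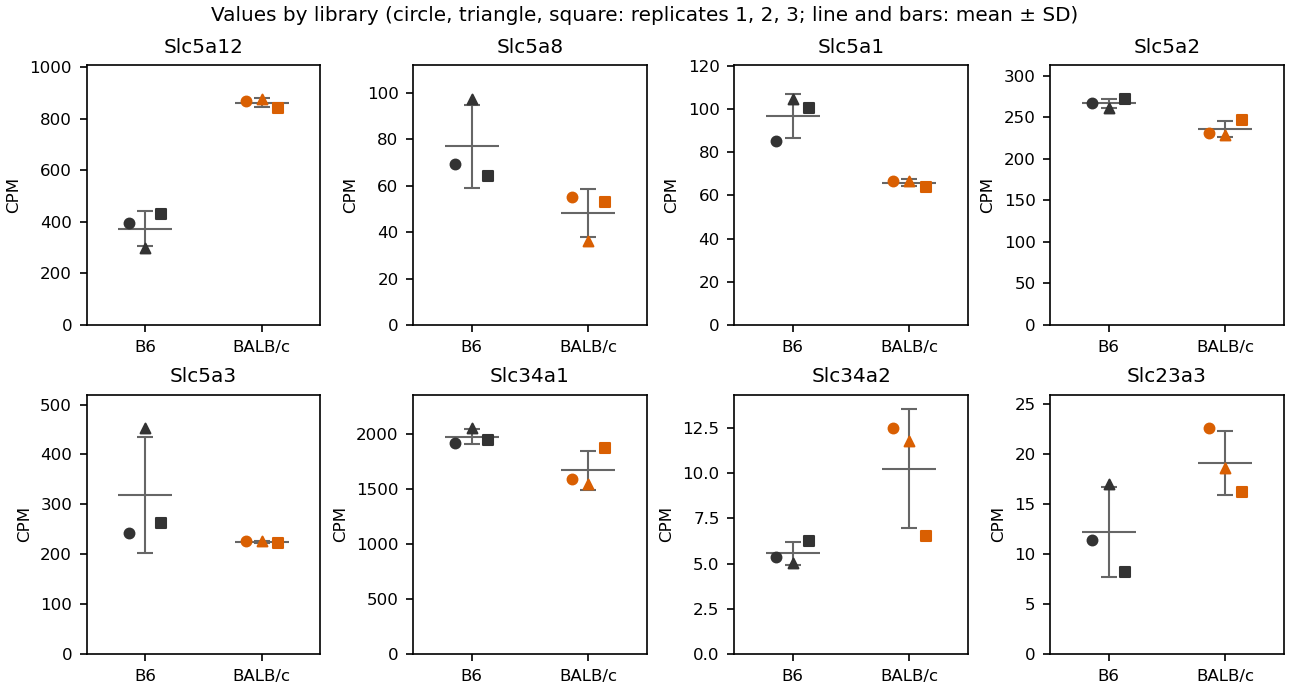
CPM by library of 8 members, each panel with its own vertical axis from 0 (black, B6; orange, BALB/c; marker shape, replicate; line and bars, mean ± SD, n = 3). Slc5a12 separates the strains widely, Slc5a1 and Slc5a8 by less, and B6 replicate 2 of Slc5a3 stands apart at 452 CPM.

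Phosphate carriers were not called. Slc34a1 (NaPi-IIa, the main apical phosphate carrier of the proximal tubule) measured 1918, 2047 and 1943 CPM in the B6 libraries and 1589, 1543 and 1867 CPM in the BALB/c libraries. All BALB/c libraries lay below all B6 libraries, with replicate 3 of BALB/c close to the B6 range. The means were 1969 ± 68.4 CPM for B6 and 1666 ± 175 CPM for BALB/c, a fold of -0.25 ± 0.094 (95% interval -0.44 to -0.052, limma adjusted p = 0.112). It was past the threshold without BALB/c replicate 3 (fold -0.33, adjusted p = 0.0433), with a robust variance prior (0.0474) and with limma-voom on recovered reads (0.0407). Exons of Slc34a1 overlap those of Pfn3 on the opposite strand, a gene of 589 reads for B6 and 372 for BALB/c, few beside the 55059 and 48129 of Slc34a1.

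Slc34a3 (NaPi-IIc, the other apical form) measured 23.7, 32.8 and 18.2 CPM in the B6 libraries and 25.8, 24.0 and 27.5 CPM in the BALB/c libraries. The BALB/c libraries lay within the wider B6 range, and the fold was 0.086 ± 0.20 (interval -0.32 to 0.49). Slc34a2 (NaPi-IIb, known mainly from gut and lung) measured 5.40, 5.04 and 6.28 CPM in the B6 libraries and 12.5, 11.8 and 6.51 CPM in the BALB/c libraries. All BALB/c libraries were higher, BALB/c replicate 3 by little, and the fold of 0.73 ± 0.29 did not pass the test (limma adjusted p = 0.128). Without BALB/c replicate 3 it passed, at an adjusted p of 0.0438.

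Of the ubiquitous phosphate carriers, Slc20a1 (PiT1) measured 41.2, 24.7 and 27.9 CPM in the B6 libraries and 30.7, 32.4 and 22.6 CPM in the BALB/c libraries, a fold of -0.11 ± 0.19. Slc20a2 (PiT2) measured 25.2, 19.2 and 18.6 CPM in the B6 libraries and 20.8, 10.3 and 15.7 CPM in the BALB/c libraries, a fold of -0.45 ± 0.23 (limma adjusted p = 0.277). The strains overlapped for both genes. Exons of Slc20a2 overlap those of Smim19 on the opposite strand, whose fold was 0.42 (limma adjusted p = 0.120).

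Several genes around phosphate balance were called. Of 14 tested genes of the phosphate list 2 rose and 4 fell, a median fold of -0.013. Of all genes tested 9.09% were called (4.17% higher and 4.93% lower). The list was chosen with earlier results of these data known. Slc9a3r1 (NHERF1, the scaffold that holds NaPi-IIa at the apical membrane) measured 86.7, 85.6 and 87.6 CPM in the B6 libraries and 38.7, 43.0 and 58.5 CPM in the BALB/c libraries. All BALB/c libraries lay below the narrow B6 range, a fold of -0.90 ± 0.14 (limma adjusted p = 1.17e-04). Klotho (Kl, the co-receptor of the phosphate-lowering hormone FGF23) had -0.60, Xpr1 (a phosphate exporter) -0.51 and Alpl (tissue alkaline phosphatase) -0.63, with limma adjusted p = 9.94e-04, 0.00803 and 0.00119. The risers were Cyp24a1 (the enzyme that breaks down active vitamin D) at 1.12 and the vitamin D receptor gene Vdr at 0.39 (limma adjusted p = 0.00325 and 0.00837). Vdr lost its call without BALB/c replicate 1 (adjusted p = 0.0527). The parathyroid hormone receptor gene Pth1r had -0.097 (limma adjusted p = 0.606).

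Carboxylate and sulfate carriers did not differ past the threshold. Slc13a3 (NaDC3, which loads dicarboxylates from the blood side) measured 665, 684 and 571 CPM in the B6 libraries and 535, 537 and 669 CPM in the BALB/c libraries. BALB/c replicate 3 lay within the B6 range and the others just below it, a fold of -0.15 ± 0.10 (interval -0.35 to 0.063). Slc13a2 (NaDC1, which recovers citrate from the filtrate) measured 62.3, 69.4 and 38.2 CPM in the B6 libraries and 56.0, 44.5 and 63.4 CPM in the BALB/c libraries. Its strains interleaved, with a fold of -0.022 ± 0.18 (interval -0.39 to 0.35). The antisense gene Slc13a2os, whose exons overlap those of Slc13a2, counted 40 reads for B6 and 96 for BALB/c, with ranges that did not overlap and a fold of 0.86 ± 0.37 (limma adjusted p = 0.166).

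Slc13a1 (NaS1, which recovers sulfate from the filtrate) measured 411, 227 and 363 CPM in the B6 libraries and 347, 371 and 306 CPM in the BALB/c libraries. B6 replicate 2 was the lowest and B6 replicate 1 the highest of the 6, so the spread within B6 exceeded the difference between strains, 0.075 ± 0.14. Slc13a4 (NaS2, a further sulfate carrier) measured 3.30, 2.22 and 3.70 CPM in the B6 libraries and 7.65, 4.48 and 6.71 CPM in the BALB/c libraries, with every BALB/c library above every B6 library. Its fold of 0.83 ± 0.33 rests on 85 reads for B6 and 184 for BALB/c and did not pass the test (limma adjusted p = 0.125). Slc13a5 (NaCT, the citrate carrier of liver) had 4 reads, all in B6 replicate 3.

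Vitamin C carriers were measured as follows. Slc23a1 (SVCT1, which recovers ascorbate from the filtrate) measured 512, 509 and 448 CPM in the B6 libraries and 500.1, 483 and 478 CPM in the BALB/c libraries. The BALB/c libraries lay within the B6 range, and the fold was -0.0057 ± 0.089 (interval -0.19 to 0.18). Slc23a2 (SVCT2, the form of most other cells) measured 10.3, 8.97 and 8.18 CPM in the B6 libraries and 6.58, 7.78 and 8.01 CPM in the BALB/c libraries. Its ranges did not overlap, though by a small margin, and the fold was -0.26 ± 0.26 (limma adjusted p = 0.632). Slc23a3, a related family member, measured 11.4, 17.0 and 8.18 CPM in the B6 libraries and 22.6, 18.6 and 16.2 CPM in the BALB/c libraries. The strains overlapped through B6 replicate 2 and BALB/c replicate 3, with a fold of 0.65 ± 0.24 (limma adjusted p = 0.107) that was 0.90 (0.0232) without B6 replicate 2. Gulo, the last enzyme of ascorbate synthesis in mice, counted 15 reads for B6 and 32 for BALB/c and lay under the filter.

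The remaining carriers were also not called. Slc45a3 and Slc45a4, proton-coupled carriers related to plant sucrose transporters, were tested. Slc45a3 averaged 25.5 ± 11.5 CPM for B6 and 25.7 ± 4.62 CPM for BALB/c. Slc45a4 averaged 27.4 ± 9.15 CPM for B6 and 28.6 ± 2.36 CPM for BALB/c. Their 95% intervals were -0.39 to 0.55 and -0.31 to 0.52, and B6 replicate 2 was the highest library for each. Slc50a1 (SWEET1, a sugar carrier) averaged 9.71 ± 0.646 CPM for B6 and 8.95 ± 0.985 CPM for BALB/c. Members at 0 reads in all 6 libraries were Slc2a6, Slc2a7, Slc45a1, Slc5a5 (NIS, the iodide carrier of thyroid) and Slc5a7 (the high-affinity choline carrier of nerve endings). A count of 0 allows up to 3 reads per strain, or 0.107 CPM for B6 and 0.105 CPM for BALB/c, for counting error alone. Slc45a2, a pigment cell gene, had 1 read.

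Other genes of sugar metabolism were called in both directions. Of 23 tested genes of gluconeogenesis, glycolysis and fructose use, 1 rose and 4 fell, with a median of -0.064. The share called over all genes tested was 9.09%. Sord (sorbitol dehydrogenase, which turns sorbitol into fructose) fell from 1237 ± 58.3 to 494 ± 72.0 CPM, a fold of -1.33 ± 0.098 (limma adjusted p = 1.25e-09). Besides G6pc, the gluconeogenic genes Pck1 and Pcx fell, with -0.57 and -0.53 (limma adjusted p = 3.39e-04 and 0.0295), and Fbp2, the muscle-type fructose bisphosphatase gene, rose by 0.44 (0.0290). Leaving out replicate 1 or 2 of B6, or replicate 1 of BALB/c, ended the Pcx call (adjusted p up to 0.173), and leaving out replicate 1 or 2 of either strain did so for Fbp2 (up to 0.115). The fructose enzyme gene Khk had -0.083 and was not called.

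Of 12 partners and sensors of glucose transport, 1 rose and 1 fell (median 0.11), while 9.09% of all genes tested were called. Txnip, which restrains glucose uptake, rose by 0.71 ± 0.13 (limma adjusted p = 5.69e-04). Pdzk1, a scaffold of apical carriers, had -0.37 ± 0.092 (limma adjusted p = 0.00989), and its call was lost when replicate 1 or 2 of BALB/c was left out (up to 0.0816). Hnf4a, a transcription factor gene of proximal tubule identity, had -0.15 (limma adjusted p = 0.456).

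The share called over all genes tested, 9.09%, also stands beside the carboxylate list. Around carboxylates, 0 of 17 tested genes rose and 3 fell (median -0.072). These were Acly (which splits citrate) at -0.60, Mpc1 (a subunit of the mitochondrial pyruvate carrier) at -0.54 and Idh1 (cytosolic isocitrate dehydrogenase) at -0.30, with limma adjusted p = 0.00100, 0.00578 and 0.0368. Idh1 lost its call when replicate 1 of B6, or replicate 1 or 2 of BALB/c, was left out (up to 0.190). Slc16a1 (MCT1, the proton-coupled lactate carrier) had -0.24 and was not called (0.301).

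Among vitamin C genes, 1 of 8 tested rose and 0 fell (median 0.12), the riser being Ugp2 (which makes UDP-glucose) at 0.71 ± 0.12 (limma adjusted p = 2.10e-04). Both this list and the next stand beside the 9.09% of all genes tested that were called. Of 8 inositol and osmolyte genes 0 rose and 1 fell (median -0.23). That gene, Hspa4l (a heat shock protein gene induced by salt), had -0.55 (limma adjusted p = 0.0478) and lost its call when any 1 library was left out (up to 0.192). Nfat5, the transcription factor of the osmotic response, had -0.22, and Miox, which breaks down inositol, had -0.27 (limma adjusted p = 0.519 and 0.0833). Of the called genes in these 6 lists, Sord, G6pc and Slc9a3r1 stayed called when the variance prior had no trend, and the others did not.

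**Figure D4:**
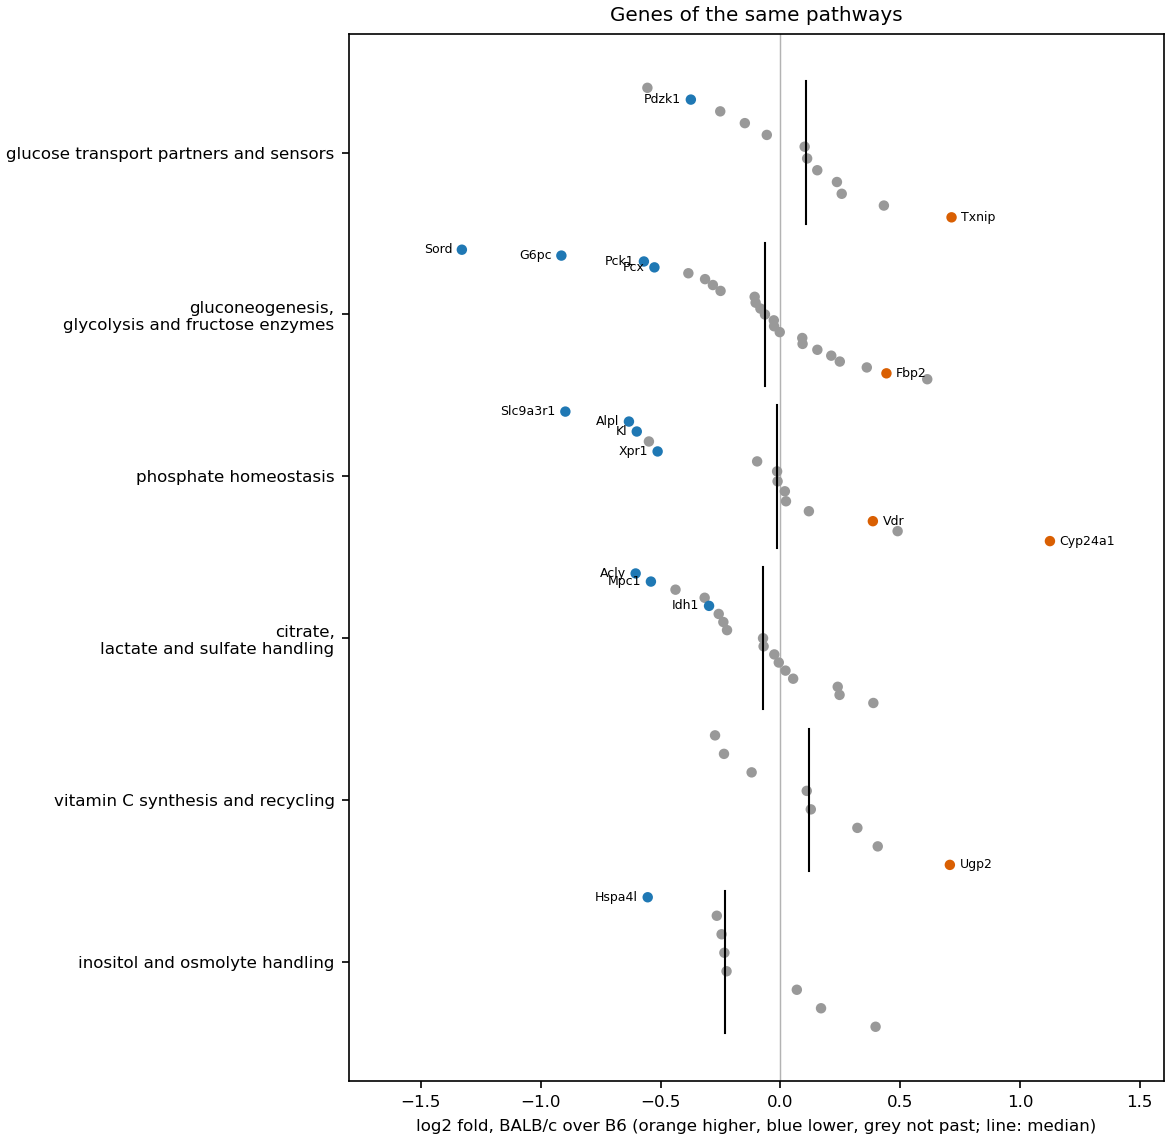
Log2 folds of the tested genes of 6 pathway lists (orange, called higher in BALB/c; blue, called lower; grey, not past the threshold; black line, the list's median). Medians lie between -0.23 and 0.12, while Sord, G6pc and Slc9a3r1 lie farthest to the left and Cyp24a1 farthest to the right.

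**Figure D5:**
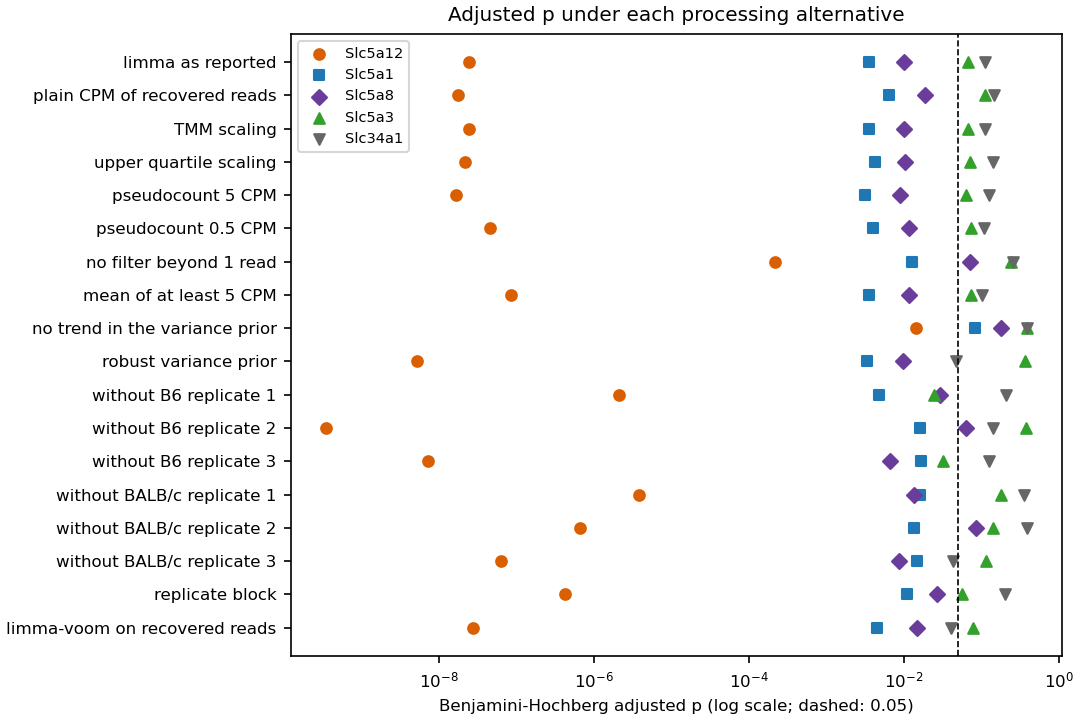
Benjamini-Hochberg adjusted p (logarithmic axis, dashed line at 0.05) of 5 members as reported and under each of 17 processing alternatives. Slc5a12 stays left of the line throughout, Slc5a1 crosses it when the variance prior has no trend, and Slc5a8, Slc5a3 and Slc34a1 lie on both sides.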

How the data were processed

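Whole-kidney RNA of 3 B6 and 3 BALB/c libraries was measured from 3′ ends with a Lexogen QuantSeq kit, per the labels' protocols. Bowtie2 and bedtools were used with mm10, per the submitters' processing notes; their versions, the gene annotation and the treatment of strand are not stated there. Each deposited file gives 1 log2 value per gene symbol, and the values were worked out to be log2(CPM + 1) with a further factor per library: low values were whole multiples of 1 read within 0.1 read for 100% of values up to 20 reads. Read numbers were recovered from these steps. Counting error therefore follows read number, and intervals on floors cover counting error only.

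The deposited values were fitted with limma 3.58.1 in R 4.3.3, with strain as the sole term and a variance prior following the level. Genes were kept at a log2 value of at least 1 in at least 3 libraries (13317 genes). Two-sided p-values were adjusted by Benjamini-Hochberg over those genes, with calls at 0.05. The fit left 4 residual degrees of freedom and the prior added 18.4. No source names separate mice for the libraries, so p-values measure the spread between libraries. No 2 libraries of a strain were alike within counting error (chi-square over its degrees of freedom, 7.93 to 17.1).

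Per-library values are given for every called member and a fixed set of 20 carriers with known kidney roles; of the pathway lists the called genes are named (the 4 smallest p where more were called). Xpr1, Vdr, Pcx, the other members and the uncalled pathway genes named were chosen after their values were seen. Members and lists were chosen with earlier results of these data known. Places and exon overlaps are from GENCODE M21 (GRCm38, the assembly of mm10), on which all 49 members were found. The share of a 3′ end found elsewhere was taken from words of 50 bases in the last 300 bases of 1 transcript per gene. Promoters are from RefSeq, in which 37 of 49 members had an entry. A few results of the lists and of the motif search are not reported here.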

Additional observations from a re-analysis of the deposited data

How the results depend on the processing

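Results were recomputed under 17 alternatives, of which limma-voom was chosen after seeing the data. The planned edgeR and DESeq2 tests were not run; of the tests on recovered reads, limma-voom alone was run. Over all genes 1211 were called; with no trend in the variance prior the number was 493, and leaving out 1 library each gave between 777 and 1125. Of the members 3 were called; 1 was called with no trend in the prior, and between 2 and 6 without 1 library. With the replicate number as a block, 977 genes and 3 members were called. Same-numbered libraries showed no sign of pairing (correlation of deviations 0.0115, -0.057 and -0.084, and -0.0342 to 0.0927 for libraries of unlike number). These values do not settle whether the numbers pair the samples. The block changed none of the 3 calls among members. Of 37 members not called, 5 were called under at least 1 alternative (Slc5a3, Slc23a3, Slc34a1, Slc34a2 and Slc37a3), and 17 members changed sign in at least 1, all of them uncalled and with a fold of at most 0.29 in size. Of 41 called genes of the pathway and cell lists, 32 lost their call under at least 1 alternative. The cause was not tested. Depth limits Slc2a3, Slc2a10, Slc2a13, Slc37a1 and Slc37a2, whose folds rest on at most 92 reads per strain.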
